A study of Homo sapiens with 20 samples.

Results

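The genes described here make, sense, move and export cholesterol, and they were followed in the SUM44 line, an established line of human invasive lobular breast carcinoma. The results rest on this single line. A fixed list of 30 gene symbols was used, and 27 of them had a probe set annotated to that symbol alone, out of 11963 genes measured this way. CYP51A1 shares its probe sets with another symbol and is not analysed here, and FDFT1 and STARD4 are not analysed here. Where a gene had several such probe sets, the brightest on average across the 20 arrays stood for it.

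Transcripts were measured on Affymetrix U133A 2.0 arrays in 5 groups of 4, which the series text calls biological quadruplicates. The groups were cells given 1 nM estradiol (E2) for 3 h, the same E2 for 24 h, ethanol vehicle (0.01%) for 3 h, the same vehicle for 24 h, and a baseline taken at 0 h. All 5 groups, the baseline included, had first been kept for 3 days in IMEM with charcoal-stripped serum, a serum from which steroids and other lipophilic molecules have been adsorbed, given as 2% in one text of the labels and 10% in another. For the E2 group at 24 h the labels conflict, since a treatment entry says baseline whereas title and description say E2, and the grouping here goes by title. Values are log2 expression, so a difference of 1 is a doubling.

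Cholesterol is built from acetyl-CoA through the mevalonate arm, which ends in farnesyl diphosphate, then through squalene to lanosterol, and from lanosterol through a series of demethylations, reductions and a double-bond shift to cholesterol. Most of these enzyme genes are driven by the transcription factors SREBP-1 and SREBP-2 (genes SREBF1 and SREBF2), which SCAP escorts from the endoplasmic reticulum for activation when sterols are scarce, while INSIG1 and INSIG2 hold SCAP back when sterols are plentiful. The opposite arm is run by the LXR nuclear receptors, which sense oxysterols and induce the exporters ABCA1 and ABCG1 and MYLIP, a ubiquitin ligase that marks lipoprotein receptors for degradation. Dividing cells need sterol for new membranes.

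The luminal epithelial identity of the cells was borne out by all 7 luminal markers, whose means ran from 11.28 for FOXA1 to 13.91 for KRT18. Of 5 stromal, 4 measured immune and 3 endothelial markers, 4, 3 and 2 lay below the level of 6.11 under which the dimmest 25% of genes fall, called dim here. COL1A1 at 8.49, CD3D at 6.36 and VWF at 6.47 lay above it. Arrays correlated at 0.998 to 0.999 within groups and 0 pairs were identical. The number of arrays limits the precision. Bulk RNA does not tell a change in the number of cells expressing a gene from a change in RNA per cell, and a change in total RNA would not appear in normalized values. A control for RNA integrity, the log2 difference between 3′ and 5′ probe sets of ACTB, was 0.385 ± 0.032 with E2 and 0.315 ± 0.027 with vehicle at 3 h, 0.384 ± 0.014 with E2 and 0.397 ± 0.032 with vehicle at 24 h, and 0.466 ± 0.010 at baseline (SD, n = 4). Its part in the results was not tested.

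Estradiol for 24 h raised nearly the whole synthesis pathway and lowered the exporter ABCG1, MYLIP and INSIG2. At 3 h the synthesis enzymes were not raised together: NSDHL rose, while SQLE, MSMO1, IDI1, MVK and LSS fell slightly against vehicle. INSIG2 was lowered 2.33-fold at 3 h and 2.32-fold at 24 h. Vehicle cells moved as well, with most enzymes above baseline at 3 h and below it at 24 h, so each E2 effect is set below beside the position of its vehicle.

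**Figure D1:**
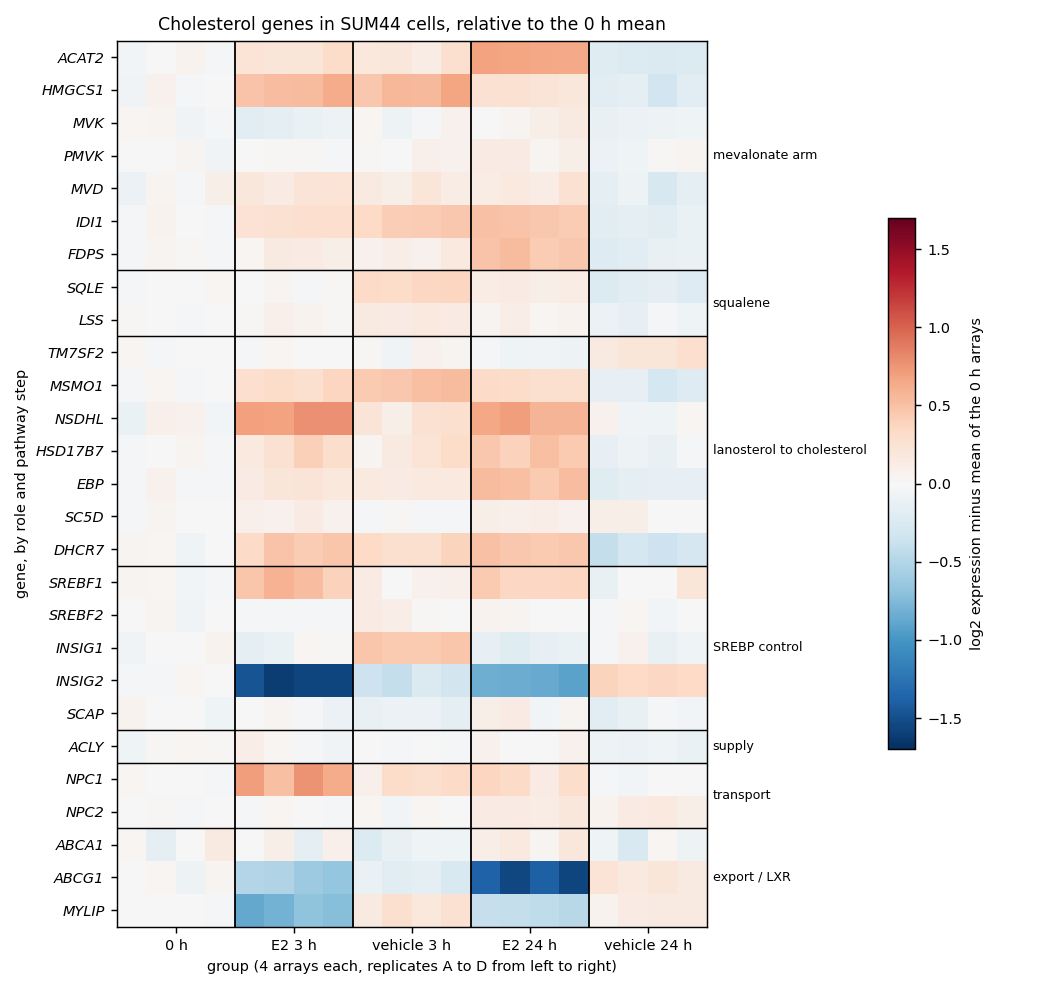
Each cell of the map is the log2 expression of a gene on 1 array minus the mean of the 4 baseline arrays (red higher, blue lower). Genes run down by role and pathway step and arrays run across by group. Most enzyme rows are red in both 3 h groups and with E2 at 24 h and pale blue in vehicle at 24 h, and INSIG2, ABCG1 and MYLIP are blue with E2.

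RefSeq promoter windows (GRCh38.p14, 250 bases before to 50 after each start) were at hand for 24 of the 27 genes. They were searched on both strands for the SREBP consensus TCACNCCAC, the CCAAT box of the SREBP partner NF-Y, the GC box GGGCGG, the full palindromic estrogen response element and the LXR direct repeat. The CCAAT and GC boxes are short and common. A CCAAT match was found for 13 of the 14 synthesis enzymes with a window, PMVK being the exception, and for 5 of the 10 other members, against 39.7% of all 27305 genes with a window. A GC box was found for 23 of the 24, all but NSDHL, against 48.3% of all genes with a window. The genes with a window outnumber the 11963 measured here, and base composition was not matched for either box. The SREBP consensus matched in SREBF2 alone, against 1.4% of all genes. The estrogen response element matched in 0 of the 24, as in all but 0.057% of the 35116 windows, and the LXR repeat matched in 0, as in all but 0.02% of windows. These letters are matches in a short window and not measured binding, and distant sites were not searched. Matches had to be exact apart from N, which stands for any base. Variant forms of a site were therefore not counted, and the lack of a match does not show that a promoter lacks a site. The 250 bases before the start are shown for FDPS, an enzyme raised at 24 h, NSDHL, raised at both times, INSIG2, lowered at both times, and SREBF2, which holds the SREBP match. Capitals mark CCAAT on either strand and, in SREBF2, also the SREBP consensus. No capital appears in INSIG2, and the later of its RefSeq starts has none either.
FDPS (chr1:155308616-155308865, plus strand): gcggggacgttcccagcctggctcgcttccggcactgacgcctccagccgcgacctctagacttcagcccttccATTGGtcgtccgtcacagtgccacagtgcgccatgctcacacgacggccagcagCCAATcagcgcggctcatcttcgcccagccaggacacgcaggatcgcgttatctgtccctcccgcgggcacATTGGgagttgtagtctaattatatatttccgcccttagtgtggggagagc
NSDHL (chrX:152830813-152831062, plus strand): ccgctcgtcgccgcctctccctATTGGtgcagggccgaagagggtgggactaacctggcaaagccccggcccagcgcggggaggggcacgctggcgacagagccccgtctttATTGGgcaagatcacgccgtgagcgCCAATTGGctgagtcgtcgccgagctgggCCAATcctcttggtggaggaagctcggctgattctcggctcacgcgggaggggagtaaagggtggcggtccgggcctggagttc
INSIG2 (chr2:118088221-118088470, plus strand): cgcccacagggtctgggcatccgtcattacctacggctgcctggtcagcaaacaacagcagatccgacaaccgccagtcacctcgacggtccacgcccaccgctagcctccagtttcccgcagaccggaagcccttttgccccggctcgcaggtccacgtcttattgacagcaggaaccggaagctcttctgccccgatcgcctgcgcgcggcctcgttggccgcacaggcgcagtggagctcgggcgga
SREBF2 (chr22:41832855-41833104, plus strand): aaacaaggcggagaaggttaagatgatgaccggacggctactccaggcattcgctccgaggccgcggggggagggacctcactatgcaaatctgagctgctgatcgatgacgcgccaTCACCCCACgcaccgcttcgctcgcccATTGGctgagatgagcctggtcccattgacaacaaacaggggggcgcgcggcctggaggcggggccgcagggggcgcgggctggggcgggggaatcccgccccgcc

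After 24 h of E2 all 7 measured genes of the mevalonate arm were higher than in vehicle. In this comparison, also used for the later pathway steps below, 21.5% of all genes were called higher and 24.2% lower. ACAT2, the cytosolic thiolase that joins acetyl-CoA units at the first step, stood at 11.40, 11.39, 11.38 and 11.36 with E2 against 10.51, 10.48, 10.48 and 10.49 with vehicle. The groups were far apart and each was tight, and the difference was 0.89 ± 0.03 (limma standard error), a 1.86-fold increase with a Benjamini-Hochberg adjusted p of 1.9e-14 by limma. It was the largest increase among the 27 genes. Baseline arrays lay between the groups at 10.67, 10.73, 10.77 and 10.70, so ACAT2 was 0.67 ± 0.03 above baseline with E2 and -0.23 ± 0.03 from baseline with vehicle.

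HMGCS1, the synthase that makes HMG-CoA, stood at 10.77, 10.77, 10.74 and 10.71 with E2 at 24 h against 10.33, 10.35, 10.19 and 10.32 with vehicle. Its difference was 0.45 ± 0.05 (adjusted p = 9.1e-08 by limma), and its other probe set gave 0.84. IDI1, which isomerises isopentenyl diphosphate, stood at 12.60, 12.58, 12.56 and 12.54 with E2 against 11.91, 11.95, 11.92 and 11.99 with vehicle. E2 arrays lay above all vehicle arrays, by 0.63 ± 0.03, on a probe set whose suffix marks possible cross-hybridisation. FDPS, which makes farnesyl diphosphate, rose by 0.64 ± 0.03, with E2 arrays at 10.85, 10.90, 10.80 and 10.83 against vehicle arrays at 10.15, 10.18, 10.24 and 10.25. MVD, the decarboxylase, rose by 0.34 ± 0.05. The kinases MVK and PMVK rose least in this arm, by 0.17 ± 0.04 and 0.13 ± 0.04 (adjusted p = 0.0015 and 0.0049 by limma). The other 2 probe sets of MVK, at 0.09 and 0.08, did not pass.

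On the way from squalene to lanosterol, both measured genes rose at 24 h. SQLE, the squalene epoxidase, stood at 11.27, 11.28, 11.25 and 11.27 with E2 against 10.92, 10.96, 10.99 and 10.93 with vehicle, a difference of 0.32 ± 0.03 (adjusted p = 2.9e-09 by limma). All 3 of its probe sets were called higher. LSS, the lanosterol synthase, rose by 0.14 ± 0.03, while its 2 other probe sets, both dim, gave 0.14 and 0.04 and did not pass.

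Among the 7 genes that act after lanosterol, 5 rose, TM7SF2 fell and SC5D did not pass at 24 h. DHCR7, which reduces 7-dehydrocholesterol at the end of the pathway, stood at 11.13, 11.10, 11.08 and 11.09 with E2 against 10.24, 10.34, 10.28 and 10.35 with vehicle. The groups did not overlap and differed by 0.80 ± 0.04, a 1.74-fold increase (adjusted p = 2.1e-12 by limma). EBP, the sterol isomerase, stood at 10.93, 10.90, 10.84 and 10.91 with E2 against 10.18, 10.23, 10.25 and 10.25 with vehicle and rose by 0.67 ± 0.03. All 3 EBP probe sets were called higher. MSMO1, the C4-methyl oxidase, stood at 12.12, 12.11, 12.07 and 12.07 with E2 against 11.66, 11.66, 11.50 and 11.58 with vehicle, a rise of 0.49 ± 0.03. HSD17B7, a ketoreductase that acts on sterols and also on estrone, rose by 0.54 ± 0.05, and the suffix of its probe set also marks possible cross-hybridisation.

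TM7SF2, a sterol C14 reductase, was the exception, with 9.19, 9.14, 9.15 and 9.12 under E2 against 9.36, 9.42, 9.41 and 9.50 under vehicle. It fell by 0.27 ± 0.03 (adjusted p = 1.1e-06 by limma), and all E2 arrays lay below all vehicle arrays. Its vehicle arrays lay above the baseline arrays, by 0.21 ± 0.03, and E2 against baseline stood at -0.06 ± 0.03 (adjusted p = 0.17 by limma). LBR, a lamin receptor with the same C14 reductase activity, rose by 0.25 ± 0.03 against vehicle at 24 h. SC5D, a desaturase, stood at 0.05 ± 0.03 (95% interval -0.01 to 0.11), and passed with cyclic loess (adjusted p = 0.0357).

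**Figure D2:**
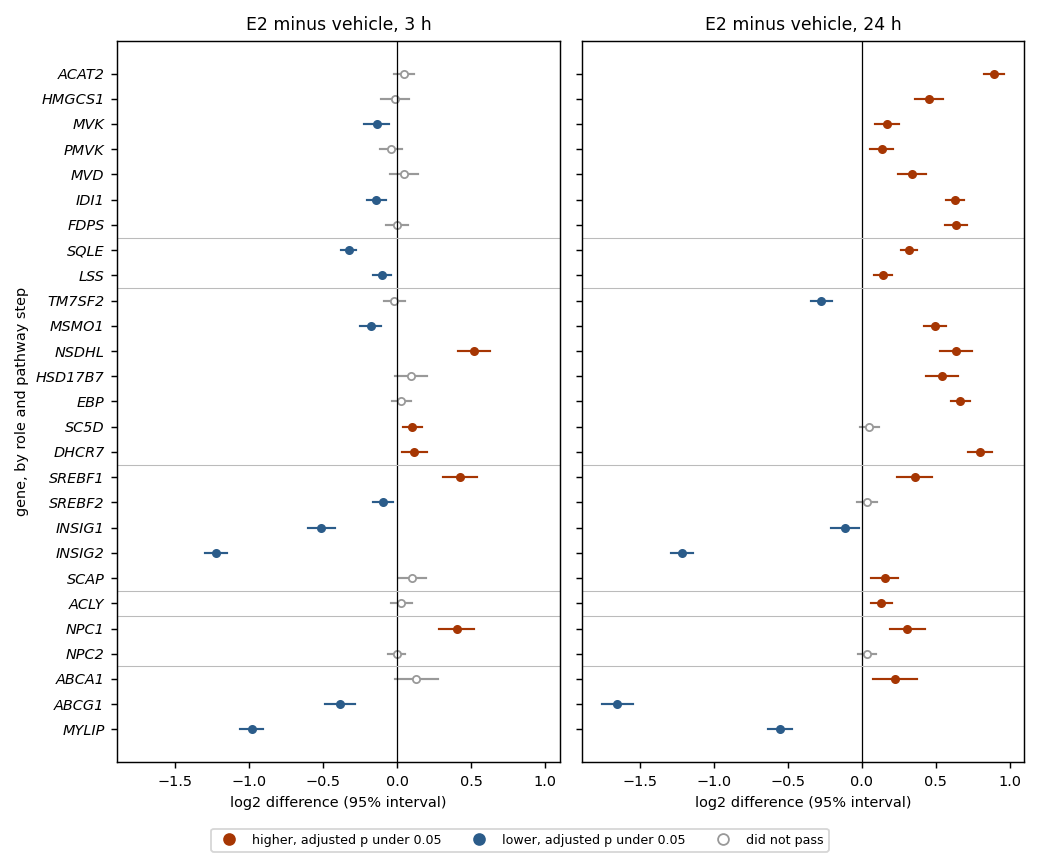
Points are log2 differences of E2 minus vehicle from the limma fit with 95% intervals, at 3 h (left panel) and 24 h (right panel), with genes down the page by role and pathway step. At 24 h the intervals of the enzymes lie to the right of 0 apart from those of TM7SF2 and SC5D, while at 3 h only NSDHL among the enzymes exceeds 0.5.

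In all, 19 of the 27 genes were higher and 5 lower with E2 than with vehicle at 24 h, where 21.5% of all genes tested were called higher and 24.2% lower, 45.7% in all. The median over the members was 0.22 and that over all genes 0.017. Of the 16 enzymes, 14 were higher and 1 lower, with a median of 0.47. E2 arrays lay wholly above vehicle arrays for 18 members and wholly below for 4, where 18.8% of all genes lay wholly above and 22.5% wholly below (41.4% in all). ABCA1 counts as higher here on the probe set used, whereas its other probe sets were called lower (-0.75 and -0.79), and all are dim. The members were chosen with results of these arrays known, so these counts describe the list.

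At 3 h the picture differed. Of the 27 genes 5 were higher and 10 lower with E2 than with vehicle, against 13.5% and 17.6% of all genes (31.1% in all), and the medians were -0.0027 over the members and 0.0002 over all genes. E2 arrays lay wholly above vehicle arrays for 4 members and wholly below for 10, where 13.4% and 17.2% of all genes did so (30.6% in all). Within the pathway, 3 of 16 enzymes were higher and 5 lower. SQLE stood at 11.14, 11.19, 11.13 and 11.17 with E2 against 11.47, 11.46, 11.49 and 11.51 with vehicle, and fell by 0.33 ± 0.03 (adjusted p = 2.1e-09 by limma). Its groups did not overlap, and all 3 probe sets were called lower. MSMO1 fell by 0.18 ± 0.03, IDI1 by 0.14 ± 0.03, MVK by 0.14 ± 0.04 and LSS by 0.10 ± 0.03. The MVK call was lost with cyclic loess (adjusted p = 0.051), while its other probe sets were also called lower at 3 h (-0.17 and -0.35). The LSS call was lost with the median over its probe sets (adjusted p = 0.758). ACAT2 at 0.04 ± 0.03, HMGCS1 at -0.02 ± 0.05, MVD at 0.05 ± 0.05, EBP at 0.03 ± 0.03 and PMVK at -0.04 ± 0.04 did not pass, and neither did FDPS, whose 95% interval ran from -0.07 to 0.07. TM7SF2 stood at -0.02 ± 0.03 and HSD17B7 at 0.09 ± 0.05, which passed without vehicle replicate D (adjusted p = 0.0496).

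NSDHL, the dehydrogenase that removes a C4 carboxyl group, was the enzyme that rose clearly at 3 h. Its arrays read 9.41, 9.40, 9.50 and 9.49 with E2 against 8.94, 8.83, 8.99 and 8.99 with vehicle at 3 h, and 9.38, 9.43, 9.30 and 9.29 with E2 against 8.79, 8.67, 8.64 and 8.75 with vehicle at 24 h. E2 arrays stood above every vehicle and baseline array at both times. The increases were 0.52 ± 0.05 and 0.64 ± 0.05 (adjusted p = 8.3e-08 at 3 h and 3.2e-09 at 24 h by limma), and both of its probe sets were called at both times. The difference between these effects, 0.12 ± 0.07 (95% interval -0.03 to 0.27), did not pass. Against baseline NSDHL was 0.73 ± 0.05 higher with E2 at 3 h and 0.63 ± 0.05 higher with E2 at 24 h.

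SC5D and DHCR7 were also called higher at 3 h, by 0.10 ± 0.03 and 0.12 ± 0.04 (adjusted p = 0.013 and 0.028 by limma). The SC5D call was lost without E2 replicate C (adjusted p = 0.0521), and the DHCR7 call was lost without vehicle replicate B or C or E2 replicate B, C or D (adjusted p from 0.0565 to 0.0902), or with only those groups fitted (adjusted p = 0.0895). SC5D's second probe set, which is dim, and the second of DHCR7 did not pass at 3 h.

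The effects at the times differed for 18 of the 27 genes in a direct test of the 24 h effect minus the 3 h effect, 16 with a positive and 2 with a negative difference. Over all genes the shares were 16.5% positive and 17.8% negative (34.3% in all). Of the 16 enzymes, 13 had a positive difference, led by ACAT2 (0.85 ± 0.05), IDI1 (0.77 ± 0.04), DHCR7 (0.68 ± 0.06), MSMO1 (0.67 ± 0.05) and SQLE (0.65 ± 0.04). All 7 genes of the mevalonate arm were among them. TM7SF2, at -0.25 ± 0.05, and ABCG1, at -1.26 ± 0.07, had the negative differences. Direction against vehicle turned between the times for MVK, IDI1, SQLE, LSS and MSMO1, which were called lower at 3 h and higher at 24 h.

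Vehicle moved between the times, and this enters the difference. At 3 h, 15 of the 27 genes were higher in vehicle than at baseline and 2 lower, where 9.95% and 10.1% of all genes were so called (20% in all). The 15 comprise 12 enzymes, INSIG1, NPC1 and MYLIP. HMGCS1 stood at 10.97, 11.07, 11.06 and 11.19 in vehicle at 3 h against 10.46, 10.59, 10.50 and 10.51 at baseline, 0.56 ± 0.05 higher (adjusted p = 4.3e-08 by limma). MSMO1 was 0.49 ± 0.03 higher, IDI1 0.41 ± 0.03, SQLE 0.34 ± 0.03 and DHCR7 0.31 ± 0.04, and for these genes every vehicle array lay above every baseline array. MVK, PMVK, TM7SF2 and SC5D did not pass. Some smaller calls were lost when an array was left out. MVD (adjusted p = 0.0264 on all arrays) was lost without baseline replicate A or C or vehicle replicate A or C. FDPS (0.0353 on all arrays) was lost without baseline replicate A, C or D or vehicle replicate B or D. HSD17B7 and ABCG1 were lost without vehicle replicate D. In these cases the adjusted p by limma ran from 0.0513 to 0.122. SCAP passed as lower without baseline replicate D (adjusted p = 0.034). With the median over probe sets the calls of EBP and LSS were lost (adjusted p = 0.087 and 0.812), and SREBF2 passed as higher (adjusted p = 0.0361). The other probe sets of EBP, LSS and NSDHL did not pass.

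At 24 h the enzymes in vehicle lay on the other side of baseline. Of the 27 genes 9 were lower and 5 higher in vehicle than at baseline, where 4.37% and 7.55% of all genes were so called (11.9% in all), and all 9 that fell were enzymes. They were DHCR7 (-0.34 ± 0.04), ACAT2, HMGCS1, SQLE, MSMO1, MVD, FDPS, IDI1 and EBP. Those that rose were INSIG2, TM7SF2, ABCG1, MYLIP and NPC2. The MVD call was lost without baseline replicate B or D or vehicle replicate C, the ABCG1 call without baseline replicate C, and the MYLIP call without any single array other than vehicle replicate A (adjusted p from 0.0557 to 0.0859). LSS passed as lower without vehicle replicate C and ACLY without baseline replicate A (adjusted p = 0.0341 and 0.0384). ACLY also passed as lower with the median over probe sets (adjusted p = 0.0107), and its other probe sets were called lower (-0.19 and -0.15). The other ABCG1 probe set was called higher (0.28). The other probe sets of LSS did not pass, and neither did another of EBP (-0.034).

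Set directly against vehicle at 3 h, vehicle at 24 h was lower for 14 genes and higher for 4, against 12.8% and 16.1% of all genes (28.9% in all). HMGCS1 fell by 0.78 ± 0.05, MSMO1 by 0.69 ± 0.03, DHCR7 by 0.65 ± 0.04, IDI1 by 0.57 ± 0.03 and SQLE by 0.54 ± 0.03. NSDHL and HSD17B7 fell by 0.22 ± 0.05 and 0.28 ± 0.05. INSIG2 rose by 0.68 ± 0.04, ABCG1 by 0.37 ± 0.05, TM7SF2 by 0.19 ± 0.03 and NPC2 by 0.11 ± 0.03. Without 1 array, MVK (3 h vehicle B), SREBF2 (3 h vehicle C or D) and PMVK (24 h vehicle D) also passed as lower (adjusted p from 0.0278 to 0.0488).

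**Figure D3:**
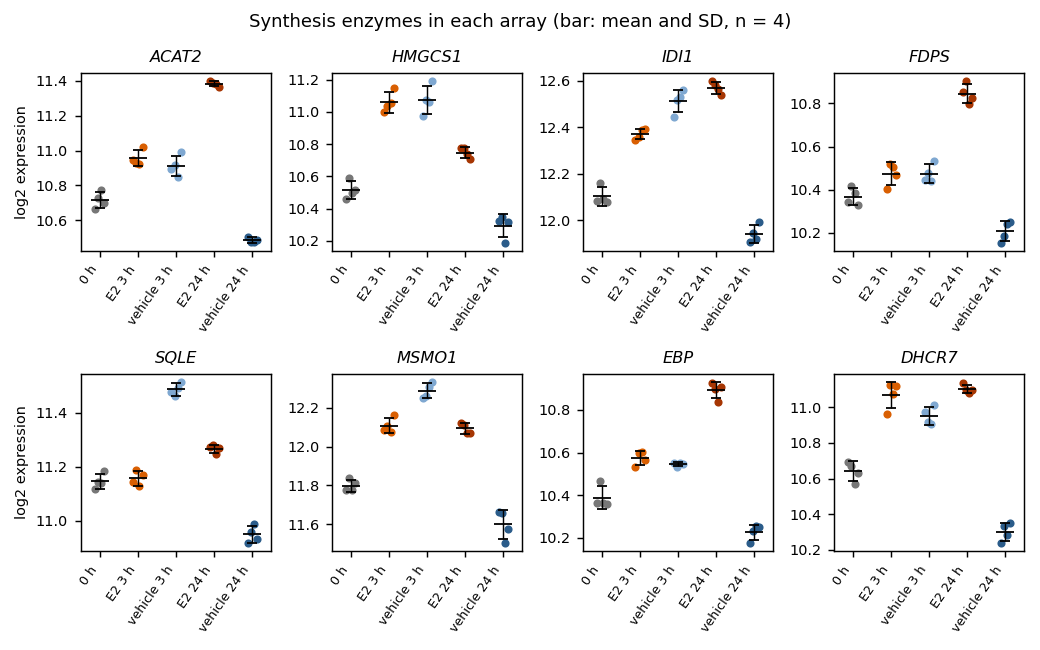
Points are single arrays of 8 synthesis enzymes in log2 expression, with the mean and SD of the 4 arrays of each group as a bar, and the vertical scale differs between panels. In every panel vehicle at 24 h is the lowest group. E2 at 24 h has the highest mean for ACAT2, IDI1, FDPS, EBP and DHCR7, and vehicle at 3 h has it for HMGCS1, SQLE and MSMO1.

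With E2 the levels can also be read against the same baseline arrays, which the vehicle comparisons share. At 3 h, 13 genes were higher and 4 lower than baseline with E2 (15.7% and 19.8% of all genes, 35.5% in all), and at 24 h, 16 were higher and 4 lower (19.2% and 22.4%, 41.6% in all). HMGCS1 was 0.54 ± 0.05 above baseline with E2 at 3 h, beside 0.56 ± 0.05 in vehicle. SQLE with E2 at 3 h, at 0.01 ± 0.03 from baseline, lay well under the 0.34 ± 0.03 of vehicle. IDI1 and MSMO1 were called lower than vehicle at 3 h while still 0.27 ± 0.03 and 0.31 ± 0.03 above baseline with E2. MVK alone among the enzymes was lower than baseline with E2 at 3 h, by -0.14 ± 0.04. The calls against baseline of FDPS and SC5D with E2 at 3 h were lost without baseline replicate A, for FDPS also without baseline D or E2 B or C, and for SC5D also without baseline C or E2 C (adjusted p from 0.0522 to 0.0758).

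Of the 19 genes called higher with E2 than with vehicle at 24 h, 9 were above baseline with E2 and below it with vehicle. They were ACAT2, HMGCS1, MVD, IDI1, FDPS, SQLE, MSMO1, EBP and DHCR7. Shares of all genes in such combined states were not computed, so the counts in this paragraph only describe the members. Both sides use the same baseline arrays. For HMGCS1 the difference of 0.45 split into 0.23 ± 0.05 above baseline with E2 and -0.22 ± 0.05 with vehicle, and for SQLE the difference of 0.32 split into 0.12 ± 0.03 and -0.20 ± 0.03. For ACAT2, IDI1, FDPS and EBP the larger share lay on the E2 side, at 0.67, 0.47, 0.48 and 0.50 above baseline. The same held for DHCR7 (0.46 with E2, -0.34 with vehicle) and MSMO1 (0.29 with E2, -0.20 with vehicle), while MVD split into 0.17 and -0.17. The splits of HMGCS1 and SQLE depended on the probe set. The other probe set of HMGCS1 gave 0.50 above baseline with E2 and -0.33 with vehicle. Another probe set of SQLE gave a difference of 0.26 with vehicle at -0.29 from baseline. With the median over its probe sets SQLE with E2 stood at -0.025 from baseline and did not pass (adjusted p = 0.737 by limma). A further 5, PMVK, NSDHL, HSD17B7, SREBF1 and NPC1, were above baseline with E2 while vehicle did not pass against baseline. For the remaining 5, MVK, LSS, SCAP, ACLY and ABCA1, neither side passed against baseline on the probe sets used. The PMVK call against baseline was lost without baseline replicate D or E2 replicate A or B (adjusted p from 0.066 to 0.0931), and that of SC5D without baseline replicate A (adjusted p = 0.0555).

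Among the genes that control SREBP, INSIG2 showed the strongest response to E2. It stood at 9.45, 9.29, 9.35 and 9.35 with E2 against 10.56, 10.51, 10.66 and 10.60 with vehicle at 3 h. At 24 h it stood at 10.08, 10.06, 10.05 and 10.00 with E2 against 11.29, 11.25, 11.26 and 11.25 with vehicle. Arrays of the groups were more than 1 log2 unit apart at both times, and the baseline arrays, at 10.90, 10.89, 10.94 and 10.91, lay between the vehicle groups. It fell by 1.22 ± 0.04 at 3 h and 1.21 ± 0.04 at 24 h (adjusted p = 7.3e-16 and 9.6e-16 by limma). The effects differed by 0.01 ± 0.05 (95% interval -0.10 to 0.11), although vehicle itself had moved by 0.68 between the times. Against baseline INSIG2 with E2 was -1.55 ± 0.04 at 3 h and -0.86 ± 0.04 at 24 h.

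INSIG1, which unlike INSIG2 is itself a well-known SREBP target, followed another course. At 3 h it stood at 10.81, 10.85, 11.00 and 10.99 with E2 against 11.44, 11.41, 11.40 and 11.44 with vehicle, and it fell by 0.51 ± 0.04 (adjusted p = 1.6e-08 by limma). All 3 of its probe sets were called lower. Vehicle at 3 h had risen 0.46 ± 0.04 above baseline, and E2 at 3 h stood at -0.05 ± 0.04 from baseline (adjusted p = 0.41). The other probe sets of INSIG1 gave -0.0013 and -0.097 for E2 at 3 h against baseline, and the second of these passed over all probe sets (adjusted p = 0.0207), as did the median over probe sets (-0.097, adjusted p = 0.0176). At 24 h the groups overlapped, and a small decrease of -0.11 ± 0.04 passed (adjusted p = 0.0455) but was lost without vehicle replicate A, B or D or E2 replicate A, B or C (adjusted p from 0.0513 to 0.172). It was also lost with the replicate block, with array medians centred, with cyclic loess and with only the compared groups fitted (adjusted p from 0.0555 to 0.181). Another INSIG1 probe set was called lower at 24 h over all probe sets (-0.11, adjusted p = 0.00978), and the third gave -0.083 and did not pass. The effects at the times differed by 0.40 ± 0.06.

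SREBF1, which encodes SREBP-1, rose by 0.42 ± 0.06 at 3 h and 0.36 ± 0.06 at 24 h (adjusted p = 4.1e-06 and 2.4e-05 by limma). It stood at 10.56, 10.67, 10.60 and 10.47 with E2 against 10.21, 10.07, 10.15 and 10.16 with vehicle at 3 h. At 24 h it stood at 10.52, 10.43, 10.43 and 10.44 with E2 against 9.95, 10.07, 10.08 and 10.29 with vehicle, whose replicate D lay above the others. No E2 array overlapped a vehicle array at either time, and vehicle did not pass against baseline at either time.

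SREBF2, which encodes SREBP-2, the main activator of cholesterol synthesis, was measured by 2 probe sets. On the probe set used it stood at -0.09 ± 0.03 at 3 h (adjusted p = 0.0315 by limma), a call lost without vehicle replicate A or B or E2 replicate A, B or C (adjusted p from 0.0572 to 0.122), and with array medians centred, cyclic loess, array weights or only the compared groups fitted (adjusted p from 0.0668 to 0.108). Its other probe set gave -0.29 at 3 h and was called. At 24 h SREBF2 stood at 0.04 ± 0.03 (95% interval -0.03 to 0.10). The difference of its effects, 0.13 ± 0.05, was lost without any of 8 single arrays (adjusted p from 0.0521 to 0.0787), namely vehicle at 3 h A or B, E2 at 3 h B or C, vehicle at 24 h A or C and E2 at 24 h A or B. On the other probe set of SREBF2 this difference was 0.35 ± 0.06 (adjusted p = 5.82e-05 by limma over all probe sets). SCAP, the escort, rose by 0.16 ± 0.04 at 24 h (adjusted p = 0.0065) with overlapping arrays, and at 3 h it stood at 0.10 ± 0.04 (adjusted p = 0.0913). It passed at 3 h without E2 replicate D, with array medians centred and with cyclic loess (adjusted p from 0.0121 to 0.0369).

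ACLY, which makes cytosolic acetyl-CoA from citrate, rose by 0.13 ± 0.03 at 24 h (adjusted p = 0.0031 by limma), with all 3 probe sets called, and stood at 0.03 ± 0.03 at 3 h. Its difference between times, 0.10 ± 0.05, did not pass, but did without E2 at 3 h replicate A, with cyclic loess, with a trended robust prior and with the median over probe sets (adjusted p from 0.000458 to 0.0403).

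The lysosomal exporters split. NPC1, a membrane protein that moves cholesterol out of lysosomes, stood at 9.61, 9.42, 9.66 and 9.53 with E2 against 8.99, 9.22, 9.18 and 9.24 with vehicle at 3 h. At 24 h it stood at 9.27, 9.23, 9.05 and 9.21 with E2 against 8.87, 8.86, 8.90 and 8.89 with vehicle. E2 arrays lay above vehicle arrays at both times, and the rises were 0.40 ± 0.06 and 0.31 ± 0.06 (adjusted p = 1e-05 and 0.00016 by limma). Both of its probe sets were called at both times. NPC2, the soluble partner that hands cholesterol to NPC1, did not pass at 3 h, where its 95% interval ran from -0.06 to 0.06, or at 24 h (0.04 ± 0.03). NPC2 was higher at 24 h than at baseline both with E2 (0.15 ± 0.03) and with vehicle (0.12 ± 0.03).

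ABCG1, which passes cholesterol to high-density lipoprotein, stood at 8.84, 8.68, 8.83 and 8.66 with E2 against 10.45, 10.38, 10.43 and 10.37 with vehicle at 24 h. The groups were far apart, and ABCG1 fell by 1.65 ± 0.05, the largest change among the 27 genes, 3.14-fold (adjusted p = 1.5e-15 by limma). At 3 h it stood at 9.73, 9.71, 9.60 and 9.57 with E2 against 10.11, 10.02, 10.06 and 9.96 with vehicle, and fell by 0.39 ± 0.05. Both of its probe sets were called lower at both times. Against baseline ABCG1 was -0.57 ± 0.05 with E2 at 3 h and -1.46 ± 0.05 with E2 at 24 h, while vehicle at 24 h stood at 0.19 ± 0.05.

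MYLIP fell most at 3 h. It stood at 9.88, 9.94, 10.05 and 10.02 with E2 against 10.89, 11.01, 10.92 and 11.00 with vehicle at 3 h, and 10.35, 10.33, 10.30 and 10.27 with E2 against 10.80, 10.88, 10.89 and 10.89 with vehicle at 24 h. Neither time showed any overlap. The decreases were -0.98 ± 0.04 and -0.55 ± 0.04 (adjusted p = 5.7e-14 and 3.2e-10 by limma), and their difference, 0.43 ± 0.05, passed. Baseline arrays sat at 10.74, 10.75, 10.75 and 10.72, above all E2 arrays.

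ABCA1, the exporter that loads cholesterol onto apolipoprotein A-I, could not be given a direction. The probe set chosen by the rule stood at 5.97, 6.03, 5.91 and 6.04 with E2 against 5.79, 5.60, 5.89 and 5.77 with vehicle at 24 h, a rise of 0.22 ± 0.07 (adjusted p = 0.013 by limma) that was lost without vehicle replicate B (adjusted p = 0.0571). At 3 h it stood at 0.13 ± 0.07, and passed without E2 replicate C (adjusted p = 0.0468). Its 2 other probe sets were called lower at both times, at -0.51 and -0.52 at 3 h and -0.75 and -0.79 at 24 h. All 3 lie below the dim level.

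**Figure D4:**
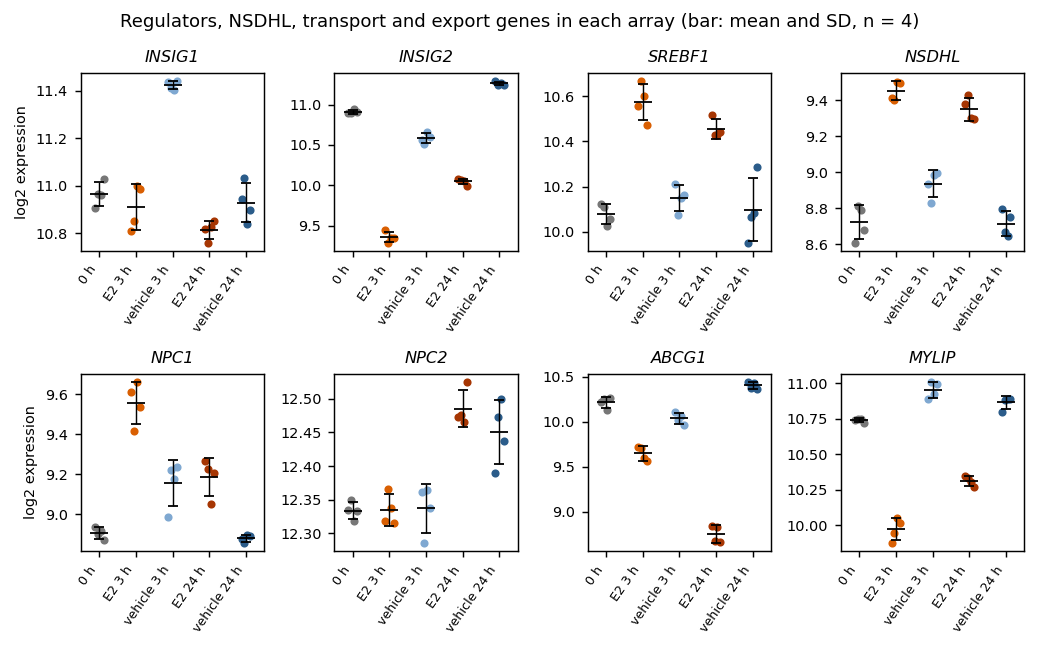
Points are single arrays in log2 expression with the mean and SD of the 4 arrays of a group as a bar, for 8 genes, and the vertical scale differs between panels. INSIG2, ABCG1 and MYLIP lie lower with E2 than with vehicle at both times, SREBF1, NSDHL and NPC1 lie higher, and INSIG1 stands high in vehicle at 3 h alone.

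**Figure D5:**
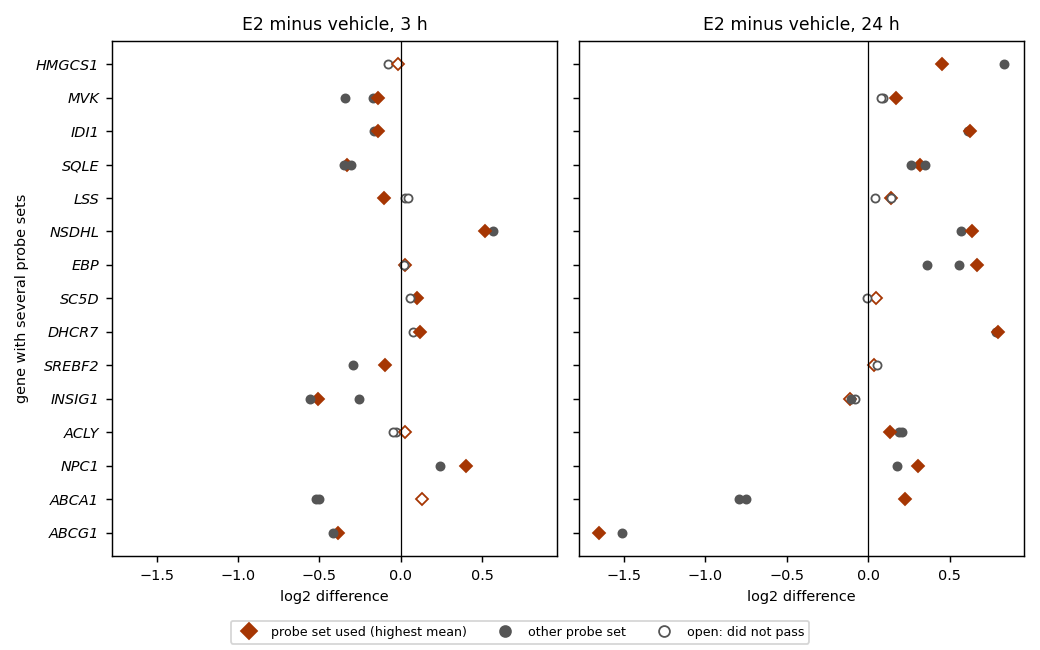
Each point is the log2 difference of E2 minus vehicle for 1 probe set of the 15 genes that have several, at 3 h (left panel) and 24 h (right panel), with the probe set used as a diamond and open symbols for those that did not pass over all probe sets. The probe sets of a gene lie on the same side of 0 for the larger changes, apart from ABCA1, whose other probe sets lie left of 0.

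Other genes of cholesterol handling, 41 measured in 5 lists, were also tested, in comparisons where 31.1% of all genes were called at 3 h and 45.7% at 24 h. Among genes of uptake, storage and transport, 4 of 10 rose and 1 fell at 3 h (50% called), and 2 rose and 3 fell at 24 h (50% called, near the share of all genes). VLDLR, a lipoprotein receptor, rose by 1.80 ± 0.08 at 3 h and 0.66 ± 0.08 at 24 h (adjusted p = 2.3e-13 and 5e-07 by limma). LRP8, a related receptor, rose by 1.03 ± 0.07 at 24 h. SCARB1, a receptor for high-density lipoprotein, rose by 0.25 ± 0.04 at 3 h and fell by 0.27 ± 0.04 at 24 h, and SOAT1, which esterifies cholesterol for storage, rose by 0.30 ± 0.05 at 3 h.

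Of 10 oxysterol and LXR genes, 1 rose and 2 fell at 3 h, near the 31.1% of all genes called. At 24 h 0 rose and 6 fell, where 24.2% of all genes were lower and 45.7% were called in all. NR1H3, which encodes an LXR receptor, fell by 0.16 ± 0.05 at 3 h and by 0.24 ± 0.05 at 24 h. SMPDL3A, an LXR target in human cells, fell by 0.22 ± 0.04 and 0.39 ± 0.04 at those times. LPCAT3, a phospholipid acyltransferase, stood at 0.01 ± 0.04 at 3 h and fell by 0.21 ± 0.04 at 24 h. CYP7B1, which hydroxylates oxysterols and is dim here, fell by 0.76 ± 0.08 at 24 h. RXRA, the partner receptor, rose by 0.45 ± 0.06 at 3 h and fell by 0.22 ± 0.06 at 24 h.

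Of 7 genes of SREBP processing and sterol-regulated degradation, 1 rose and 3 fell at each time (57.1% called, against 31.1% of all genes at 3 h and 45.7% at 24 h). MBTPS1, the protease that makes the first cut in SREBP, fell by 0.30 ± 0.03 at 3 h and 0.38 ± 0.03 at 24 h. RNF139 and ERLIN1, which take part in degradation in the endoplasmic reticulum, fell by 0.27 ± 0.03 and 0.25 ± 0.03 at 3 h. TMEM97, an SREBP target, rose by 0.45 ± 0.03 at 24 h. Of 7 other sterol enzymes and electron donors, 1 rose and 0 fell at 3 h (14.3% called, below the share of all genes), and 5 rose and 2 fell at 24 h (100% called). POR, which feeds electrons to cytochromes P450 and to squalene epoxidase, fell by 0.41 ± 0.03 at 24 h, and CYB5A fell by 0.25 ± 0.02. Of 7 genes of other isoprenoid branches, 1 rose and 1 fell at 3 h (28.6% called), and 2 rose and 2 fell at 24 h (57.1% called). Among them, COQ2, of ubiquinone synthesis, rose by 0.57 ± 0.05 and PDSS2 fell by 0.37 ± 0.05 at 24 h.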

How the data were processed

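The authors deposited log2 values per probe set for the 20 arrays, which the submitters' processing notes attribute to RMA in affy. Their versions and parameters are not given in the sources used here. RMA corrects background, quantile-normalizes across arrays and summarises probes. Of 22277 probe sets, 62 controls were left out, 19064 had 1 gene symbol, 1043 several and 2108 none, from the platform annotation. Entrez numbers of 19052 matched RefSeq, which changed 0 symbols. For each of 11963 genes the probe set with the highest mean was used, with no filter.

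In R 4.3.3, limma 3.58.1 (lmFit, eBayes, two-sided) was run on all arrays together with a mean per group. Benjamini-Hochberg adjustment ran over all genes of each comparison, with a threshold of 0.05. Errors after ± are standard errors of that fit unless SD is named. The fit was checked on simulated data. The members and lists were chosen with earlier results of these data known. Every member is named. From other lists, at most the 3 genes with the smallest p per E2 comparison are named, and each gene so named is given at both times where this adds to it. Replicate letters were not used to pair arrays. Same-letter deviations from group means correlated at -0.245 to 0.37 over 40 pairs, of which 6 exceeded 0.1. The highest was between E2 at 3 h and E2 at 24 h for letter D. With 4 arrays per group these values cannot show whether the letters mark a pairing. 0 columns of other samples were present. The alternatives changed the scaling, the choice of probe set, the prior, the weights, the dim genes kept, the groups fitted together, a block for the letter, or left 1 array out.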

Additional observations from a re-analysis of the deposited data

Results flagged for a closer look

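The effect of E2 differed between 24 h and 3 h, by a direct limma test of the difference (24 h minus 3 h), for 18 of the 27 genes. Over all genes 34.3% were called in this test, 16.5% with a positive and 17.8% with a negative difference. In the mevalonate arm the differences were 0.85 for ACAT2, 0.47 for HMGCS1, 0.31 for MVK, 0.18 for PMVK, 0.29 for MVD, 0.77 for IDI1 and 0.64 for FDPS. Further along the pathway they were 0.65 for SQLE, 0.25 for LSS, -0.25 for TM7SF2, 0.67 for MSMO1, 0.45 for HSD17B7, 0.64 for EBP and 0.68 for DHCR7. Among the other members they were 0.13 for SREBF2, 0.40 for INSIG1, -1.26 for ABCG1 and 0.43 for MYLIP.

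A single array stood apart from the other 3 of its group in 6 of 135 combinations of gene and group, by Dixon's criterion, which chance meets in about 1 in 20. At baseline, replicate B read 12.16 for IDI1, where the others ran from 12.08 to 12.09, and 10.47 for EBP, where they ran from 10.36 to 10.37. Replicate C at baseline read 9.52 for LSS against 9.57 to 9.58. With E2, replicate C at 3 h read 11.80 for SC5D against 11.73 to 11.74, and replicate A at 24 h read 10.52 for SREBF1 against 10.43 to 10.44. In vehicle at 24 h, replicate A read 10.80 for MYLIP against 10.88 to 10.89.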

How the results depend on the processing

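Counts of all genes called stayed within 1.5 times of those reported in every comparison and alternative. The replicate block gave 3665 genes called at 3 h and 5479 at 24 h for E2 against vehicle, and the same counts of members called apart from 4 rather than 5 lower at 24 h, where INSIG1 was lost (adjusted p = 0.0555). In 18 of 80 checks an array was closest to its own letter among the 4 arrays of another group. Taking the median over a gene's probe sets moved most: E2 at 3 h then called 3 members higher rather than 5, and E2 at 3 h against baseline 7 lower rather than 4. It turned ABCA1 to -0.51 at 3 h, -0.75 at 24 h, and -0.58 and -0.60 against baseline at those times. It turned LSS to 0.042 for E2 at 3 h, -0.0022 for the difference between times, -0.038 for vehicle at 3 h against baseline and 0.0038 between the vehicles. Against baseline SC5D became -0.037 with E2 at 3 h and -0.0033 at 24 h, and SQLE -0.025 at 24 h. LSS and ABCA1 have 2 further probe sets each that are dim, and SC5D 1. The ABCA1 probe set used is dim as well, whereas no SQLE probe set is dim. Member medians under this choice were 0.10 for vehicle at 3 h, -0.061 for vehicle at 24 h, -0.16 between the vehicles, and 0.0021 and 0.10 for E2 at 3 h and 24 h against baseline. Centred array medians gave 0.25 for E2 at 24 h. Cyclic loess gave 0.27 for the difference between times and 0.067 for E2 at 3 h against baseline, and leaving out the dimmest 25% of genes gave 0.27 and 0.070. With single arrays left out, the member median ran from -0.016 to 0.019 for E2 at 3 h, 0.17 to 0.27 for E2 at 24 h, 0.11 to 0.15 for vehicle at 3 h, -0.098 to -0.072 for vehicle at 24 h, -0.23 to -0.20 between the vehicles and 0.12 to 0.16 for E2 at 24 h against baseline. Members called higher in vehicle at 24 h numbered 3 to 5, with 3 without baseline replicate C, and those called lower in vehicle at 3 h 1 to 3, with 1 without vehicle replicate D. The cause of these shifts was not tested. The number of arrays and signals near background limit small changes.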
